A study of Caenorhabditis elegans with 20 samples.

Results

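The major sperm proteins are encoded in Caenorhabditis elegans by a family of small, nearly identical genes. The family was taken as all genes whose WormBase symbol is msp- followed by a number, and 31 such genes were found among the 39341 genes of the deposited tables. Major sperm protein is the main cytoskeletal protein of nematode sperm, which crawl by assembling and disassembling it in place of actin. Sperm also release it as a signal, which binds receptors in the gonad and drives the meiotic maturation of oocytes and the contraction of the sheath around them. Hermaphrodites make their sperm late in larval development, before the germline turns to oocytes, and msp genes are known to be transcribed in the cells that form sperm.

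RNA was measured in whole animals labelled as stage L4, from a minimum of 200 staged animals per library, in 20 libraries of 10 groups with 2 biological replicates each. In experiment 1 (8 libraries), Δnhr-114 (nhr-114(gk849)) and wild type (WT) animals fed Escherichia coli OP50 on soy peptone plates for 48 hours received 25 mM methionine or none. The gene nhr-114 encodes a nuclear hormone receptor. In experiment 2 (12 libraries), metr-1(ww52);Δnhr-10 (with nhr-10(tm4695)), Δmetr-1 (metr-1(ok521)) and WT animals were fed E. coli HT115 carrying an nhr-114 RNAi clone or the empty vector for 48 hours, on plates with vitamin B12 at 20 nM. The gene metr-1 encodes methionine synthase. Every strain, WT included, carried the reporter transgene wwIs24[Pacdh-1::GFP;unc-119(+)]. The metr-1(ww52);Δnhr-10 strain, which came from a chemical mutagenesis screen, differs from WT in both genes, so a difference between them cannot be told apart into a metr-1 and an nhr-10 share.

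Depth ran from 1389117 to 24482380 recovered reads per library, and each value is in CPM, a gene's reads scaled so that its library sums to 1000000, with no correction for gene length. A count of 0 allows up to 3 reads, or 0.123 to 2.16 CPM depending on the library, and such floors cover counting error only. The targeted gene was checked first. In Δnhr-114 animals nhr-114 was at 0.408 to 0.703 CPM, against 5.41 to 36.6 CPM in WT animals of experiment 1. In experiment 2, replicate 1 of the libraries labelled nhr-114 RNAi had more nhr-114 reads than any vector library: the gene was at 391 CPM in metr-1(ww52);Δnhr-10, 193 CPM in Δmetr-1 and 340 CPM in WT, whereas replicate 2 of these strains held 3.60 CPM, 7.94 CPM and 2.30 CPM, and the vector libraries 3.16 to 46.3 CPM. Whether the reads in replicate 1 came from the animals' own transcript or from the RNAi clone was not tested, so these 3 libraries give no check of the knockdown. The 12 libraries are therefore named by their labels, and the calls that rest on those 3 are also given without them.

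All 31 members lie on chromosomes II and IV (WBcel235 annotation), in 4 groups separated by more than 500 kb. Chromosome II carries 10 of them between positions 4785898 and 5200180 and 3 between 5797065 and 5810330, and chromosome IV carries 9 between 5055631 and 5316906 and 9 between 9689015 and 10143740. Each is annotated as a single exon with no untranslated region: 28 models are 384 bases long and encode 127 amino acids, msp-32 is 360 bases long, and msp-58 and msp-74 are 234 bases long. Reads came from the 3′ ends of transcripts, so no length correction was made. Equal model length does not settle how reads are shared between copies, so single levels are set side by side only as counted.

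The first chromosome IV cluster held most of the family's RNA. Over the 20 libraries it carried 63.4% of the family's mean level, against 20.1% for the second chromosome IV cluster, 9.88% for the 10 genes and 6.56% for the 3 genes on chromosome II. The 6 members with the highest mean level all belong to it: msp-57 (IV, 5062578 to 5062961, + strand) averaged 431 CPM, msp-51 (IV, 5294957 to 5295340, - strand) 422 CPM, msp-113 (IV, 5297962 to 5298345, + strand) 326 CPM, msp-19 (IV, 5260589 to 5260972, + strand) 318 CPM, msp-53 (IV, 5064678 to 5065061, - strand) 314 CPM and msp-58 (IV, 5308593 to 5308826, + strand) 269 CPM. The model of msp-58 is one of the shorter ones, and the ranking of single copies is limited by the sharing of reads. At the low end, msp-63 averaged 3.69 CPM, msp-32 0.737 CPM and msp-74 0.672 CPM. The last 2 did not reach 5 CPM in 2 libraries of either experiment and were left out of the tests, so that 29 of the 31 members were tested in both experiments.

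The first chromosome IV cluster made up 60.2 to 67.2% of the family total in every library, the second 16.8 to 24.7%, the 10 genes on chromosome II 8.69 to 12.1% and the 3 genes on chromosome II 4.43 to 8.40%. Across the 20 libraries, Pearson's r between the log2 levels of 2 members was 0.963 to 1.000 in the 378 pairs of the 28 members with a mean of at least 5 CPM; this is a description, since members share libraries and may share reads. The authors' counter kept reads that map to more than one place, and how it shares them between copies was not settled here, so the level of a single copy is uncertain and a read may enter the family total more than once. The members msp-19 and msp-53 stayed within 1.03-fold of each other in every library, and 6 pairs stayed within 1.2-fold, but 0 members had the same reads as another in all libraries.

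**Figure D1:**
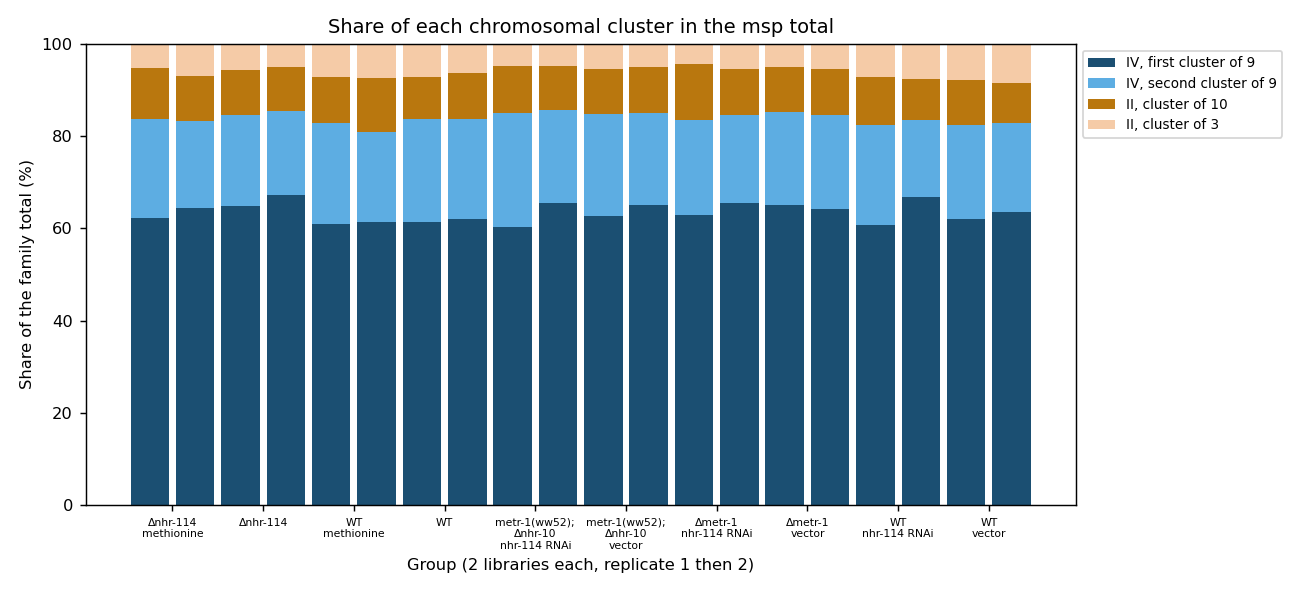
Share of the major sperm protein family total (%, y axis) held by each chromosomal cluster in the 20 libraries (x axis, 2 bars per group, RNAi as labelled). The first chromosome IV cluster holds 60.2 to 67.2% in every library, whatever the group.

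The family total, the sum of the 31 members, separated the metr-1 mutants labelled nhr-114 RNAi from the other 16 libraries. It was 395 and 591 CPM in the metr-1(ww52);Δnhr-10 libraries labelled nhr-114 RNAi and 224 and 451 CPM in Δmetr-1 labelled nhr-114 RNAi. On vector, the total was 2634 and 4104 CPM in the metr-1(ww52);Δnhr-10 strain and 6279 and 2906 CPM in Δmetr-1. In WT it was 5246 and 6740.2 CPM in the libraries labelled nhr-114 RNAi and 8227 and 7964 CPM on vector. The highest of the 4 low libraries was 3.17-fold below the lowest of the other 16, which was a WT library of experiment 1.

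**Figure D2:**
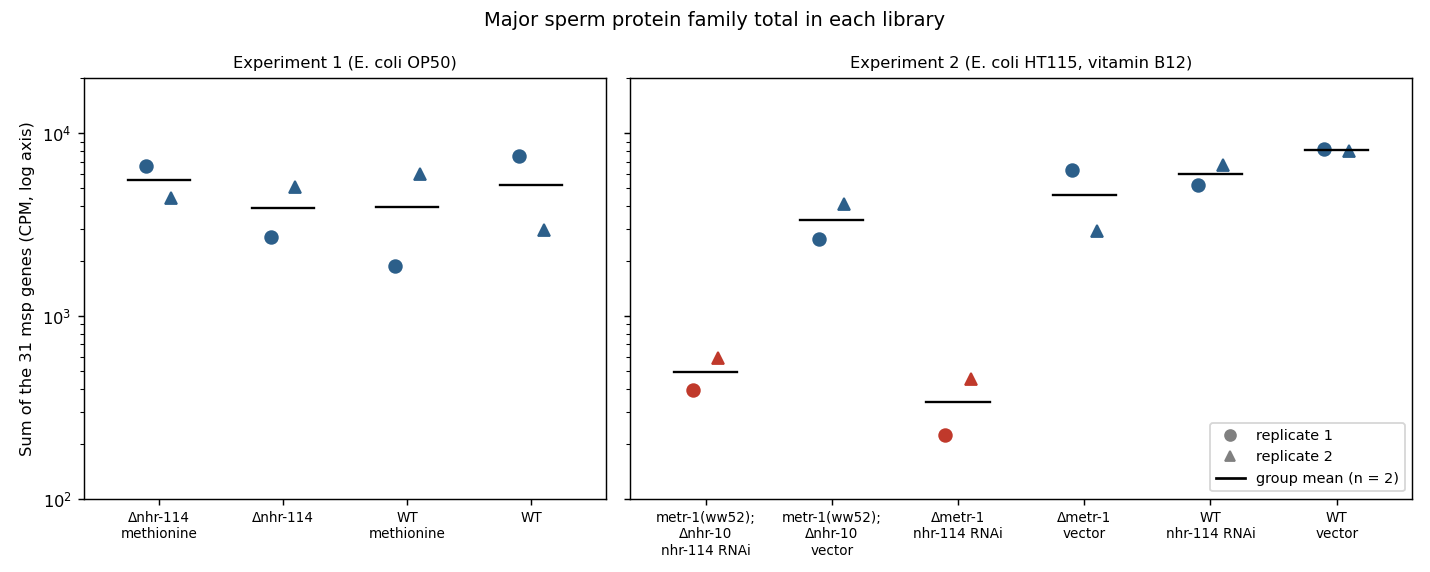
Sum of the 31 msp genes (CPM, log axis) in each library, by group (RNAi as labelled); points are single libraries and lines the mean of 2. The 4 libraries of metr-1 mutants labelled nhr-114 RNAi lie between 224 and 591 CPM, and the other 16 lie between 1871 and 8227 CPM.

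In experiment 1 the question was how methionine, given to animals with and without nhr-114, changes expression. The family total was 6635 and 4412 CPM in Δnhr-114 with methionine, 2723 and 5113 CPM in Δnhr-114 without it, 1871 and 6017 CPM in WT with methionine, and 7529 and 2953 CPM in WT without it. Replicates thus differed 1.504- to 3.22-fold within a group, and the groups overlapped in each of the 4 comparisons. For msp-57, the member with the highest mean over the 20 libraries, the levels were 686 and 483 CPM in Δnhr-114 with methionine, 319.5 and 609.5 CPM in Δnhr-114 without it, 184 and 593 CPM in WT with methionine and 746 and 292 CPM in WT without it.

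By limma on log2(CPM + 1), with a Benjamini-Hochberg adjusted p below 0.01 and a change above 1.5-fold as the threshold, 0 of the 29 members passed in each of the 4 comparisons and in the test of the interaction, beside 0% of the 10948 genes tested in each direction. The unadjusted p was below 0.05 for 0 of the 29 members in all 5 tests, beside 94 to 496 of all genes. With edgeR and DESeq2 on recovered reads, 0 members were called too. The median log2 change of the members was 0.58 for methionine in Δnhr-114, -0.44 for methionine in WT, -0.39 for Δnhr-114 against WT without methionine and 0.65 with it, beside medians over all genes tested of -0.07, -0.02, 0.10 and 0.04. The marker sums also varied: over the 8 libraries those of 6 vitellogenin genes (yolk proteins, made by adult intestine) ran from 26.3 to 3278 CPM and those of 18 oocyte and eggshell genes from 357 to 5629 CPM. Within groups, the vitellogenin sum was 68.0 and 3278 CPM in Δnhr-114 without methionine but 52.8 and 26.3 CPM in WT without it. The part of these markers in the spread of the msp genes was not tested.

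The second experiment asked what nhr-114 knockdown does where methionine synthase is defective. In metr-1(ww52);Δnhr-10 the family total averaged 493 ± 138 CPM in the libraries labelled nhr-114 RNAi and 3369 ± 1039 CPM on vector (SD, n = 2 each), 6.83-fold lower under the RNAi label. In Δmetr-1 it averaged 338 ± 160 CPM in the libraries labelled nhr-114 RNAi and 4593 ± 2385 CPM on vector (SD, n = 2 each), 13.6-fold lower. In WT it averaged 5993 ± 1056 CPM in the libraries labelled nhr-114 RNAi and 8095 ± 186 CPM on vector (SD, n = 2 each), 1.35-fold lower. The groups did not overlap in any of the 3 strains, and no test is given for a total over members.

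The members with the highest mean were low in the same 4 libraries. The level of msp-57 was 43.9 and 61.0 CPM in the metr-1(ww52);Δnhr-10 libraries labelled nhr-114 RNAi, against 301 and 446 CPM on vector. In Δmetr-1 it was 25.2 and 51.4 CPM in the libraries labelled nhr-114 RNAi, against 706 and 316 CPM on vector. In WT it was 485 and 698 CPM in the libraries labelled nhr-114 RNAi, against 777 and 799 CPM on vector. All 4 libraries of the labelled metr-1 mutants were below every other library of either experiment for this gene, the lowest of which was at 184 CPM.

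For msp-51 the levels were 39.9 and 63.9 CPM in the metr-1(ww52);Δnhr-10 libraries labelled nhr-114 RNAi, against 252 and 423 CPM on vector. In Δmetr-1 they were 19.7 and 44.4 CPM, against 673 and 292 CPM on vector, and in WT 489 and 703.5 CPM, against 860.3 and 823 CPM on vector. Its level was above that of msp-57 in all 4 WT libraries of experiment 2. For msp-113 the levels were 24.9 and 47.0 CPM in labelled metr-1(ww52);Δnhr-10, against 203 and 338 CPM on vector, and 17.3 and 34.7 CPM in labelled Δmetr-1, against 507 and 230.2 CPM on vector. In WT msp-113 was at 405 and 583 CPM in the libraries labelled nhr-114 RNAi, against 635 and 652 CPM on vector, so the WT groups did not overlap either.

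The levels of msp-19 were 28.2 and 45.8 CPM in labelled metr-1(ww52);Δnhr-10, against 197.5 and 329.8 CPM on vector, and 19.7 and 36.4 CPM in labelled Δmetr-1, against 456 and 238 CPM on vector. In WT this gene was at 402 and 567 CPM in the labelled libraries, against 591 and 581 CPM on vector. Its near-copy msp-53 had 28.6 and 45.1 CPM in labelled metr-1(ww52);Δnhr-10, against 200.2 and 325 CPM on vector, and 19.6 and 35.5 CPM in labelled Δmetr-1, against 444 and 231 CPM on vector. In WT it had 397 and 556 CPM in the labelled libraries, against 585 and 574 CPM on vector. The shorter gene msp-58 had 23.6 and 42 CPM in labelled metr-1(ww52);Δnhr-10, against 164 and 270.3 CPM on vector, and 11.8 and 28.1 CPM in labelled Δmetr-1, against 441 and 181 CPM on vector. In WT msp-58 had 319 and 458 CPM in the labelled libraries, against 531 and 533 CPM on vector, the same order of groups as for the other 5.

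**Figure D3:**
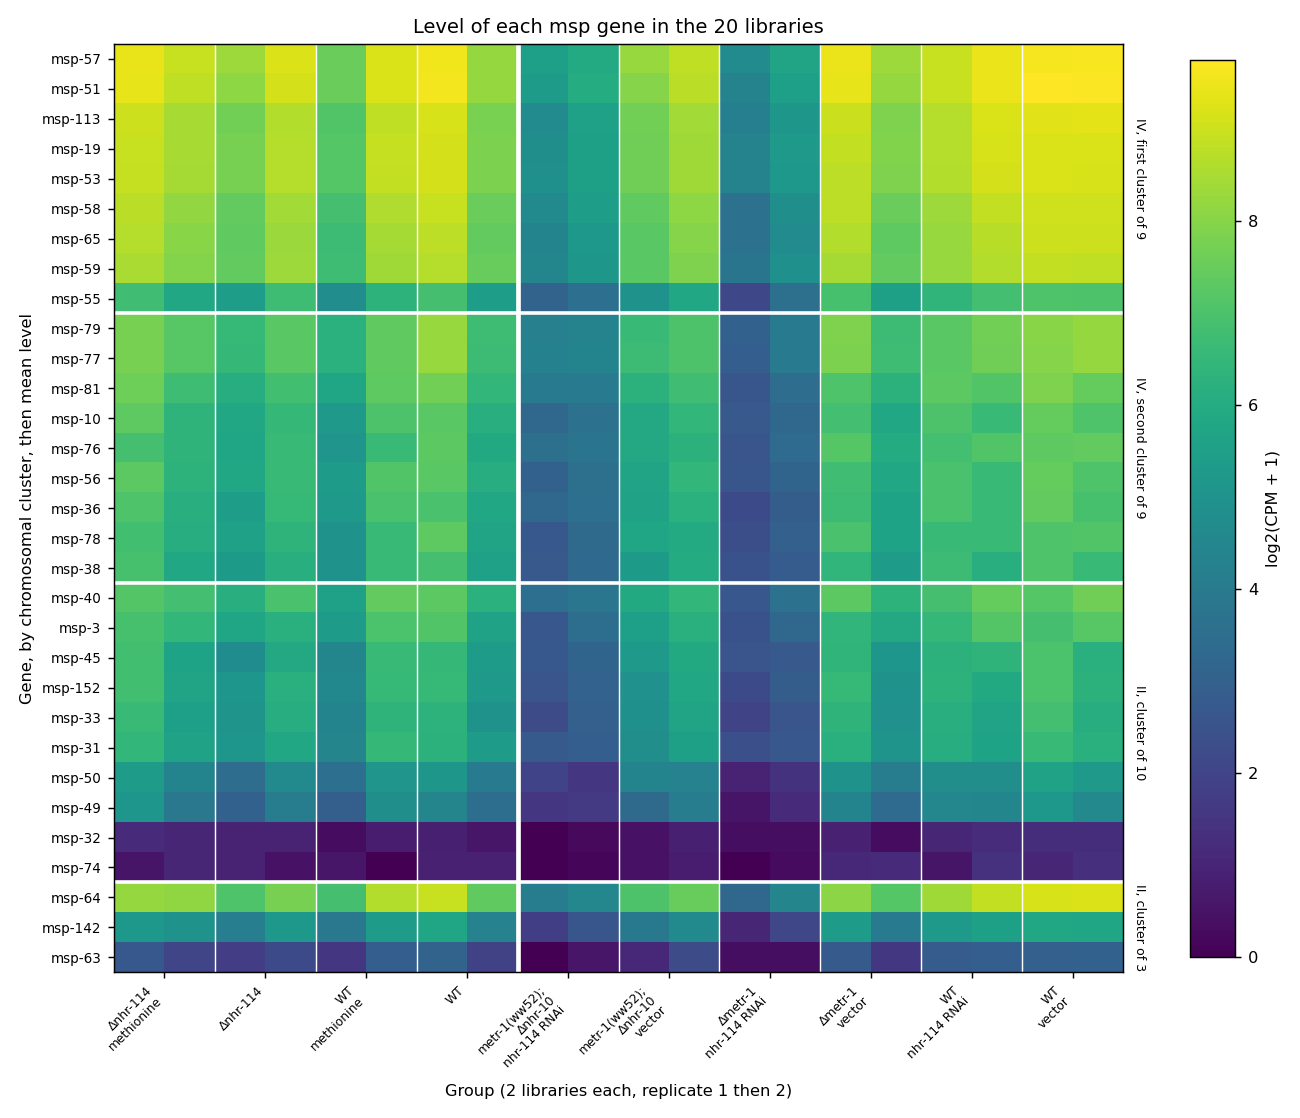
Level of each of the 31 msp genes, as log2(CPM + 1) (colour), in the 20 libraries (x axis, 2 per group, RNAi as labelled), with genes by chromosomal cluster and mean level (y axis). The 4 columns of metr-1 mutants labelled nhr-114 RNAi are darker than all others for every member but msp-32 and msp-74, which are near 0 throughout, with msp-57 at 25.2 to 61.0 CPM there.

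In metr-1(ww52);Δnhr-10, 25 of the 29 tested members were called lower in the libraries labelled nhr-114 RNAi than on vector (limma, Benjamini-Hochberg adjusted p below 0.01), beside 3.38% of the 11543 genes tested. Those with the largest fall were msp-64 (II, 5809947 to 5810330, - strand) with a log2 change of -2.94 ± 0.42 (SE, adjusted p = 0.00303), msp-113 with -2.90 ± 0.48 (adjusted p = 0.00516) and msp-65 (IV, 5316523 to 5316906, + strand) with -2.82 ± 0.50 (adjusted p = 0.00707). The members not past the threshold were msp-152, msp-142, msp-55 and msp-63, at log2 changes of -2.56, -2.11, -2.10 and -1.39. The median over the 29 members was -2.67, beside -0.09 over all genes tested. This count rested on the other strains' libraries: it was 0 with the compared libraries alone, 0 without any 1 of the 4 compared libraries, and 14 and 13 without WT vector replicate 1 and 2, with log2 changes of the same sign.

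In Δmetr-1, 28 of the 29 members were called lower in the libraries labelled nhr-114 RNAi than on vector, beside 11% of all genes tested. The largest falls were those of msp-58 (-3.88 ± 0.52, limma adjusted p = 0.00110), msp-51 (-3.86 ± 0.49, adjusted p = 0.000956) and msp-77 (IV, 9894631 to 9895014, + strand; -3.81 ± 0.42, adjusted p = 0.000734), on the log2 scale with the SE. The level of msp-77 was 6.50 and 15.3 CPM in the labelled libraries, against 227 and 104 CPM on vector. Only msp-63, the member with the lowest level among those tested, missed the threshold (-1.81 ± 0.49, limma adjusted p = 0.0210), with 0.271 and 0.289 CPM in the labelled libraries, that is 3 and 4 reads, against 5.72 and 2.00 CPM on vector. The median over the members was -3.57, beside -0.11 over all genes. The count fell to 5 without Δmetr-1 RNAi replicate 1 and to 0 with the compared libraries alone.

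In WT, 0 of the 29 members passed the threshold between libraries labelled nhr-114 RNAi and vector, beside 0% of all genes in either direction. The unadjusted p was below 0.05 for 0 members, beside 141 of all genes, and edgeR and DESeq2 called 0. The log2 changes ran from -0.65 to -0.14. They were below 0 for all 29 members, and for 22 of the 29 the libraries did not overlap, beside 17.1% of all genes tested with labelled libraries lower.

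The difference between strains in the effect of the RNAi label was tested as an interaction. For Δmetr-1 against WT its median over the 29 members was -3.12 (range -3.41 to -1.67) and the limma adjusted p ran from 0.0203 to 0.154, so that 0 members passed at 0.01, beside 0.0347% of all genes called lower. The unadjusted p was below 0.05 for 29 of 29 members, beside 3120 of the 11543 genes tested. Members may share reads, so their number is not a number of separate results. For this interaction edgeR called 0, and DESeq2 called 28, beside 853 of all genes. Without Δmetr-1 vector replicate 2, limma called 27. For metr-1(ww52);Δnhr-10 against WT the median was -2.22 (range -2.55 to -1.25) and limma called 0 members (adjusted p from 0.0592 to 0.356), beside 0.0173% of all genes called lower. Here the unadjusted p was below 0.05 for 27 of the 29, beside 2255 of the 11543 genes tested. The edgeR test called 0 and DESeq2 called 7, beside 478 of all genes.

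**Figure D4:**
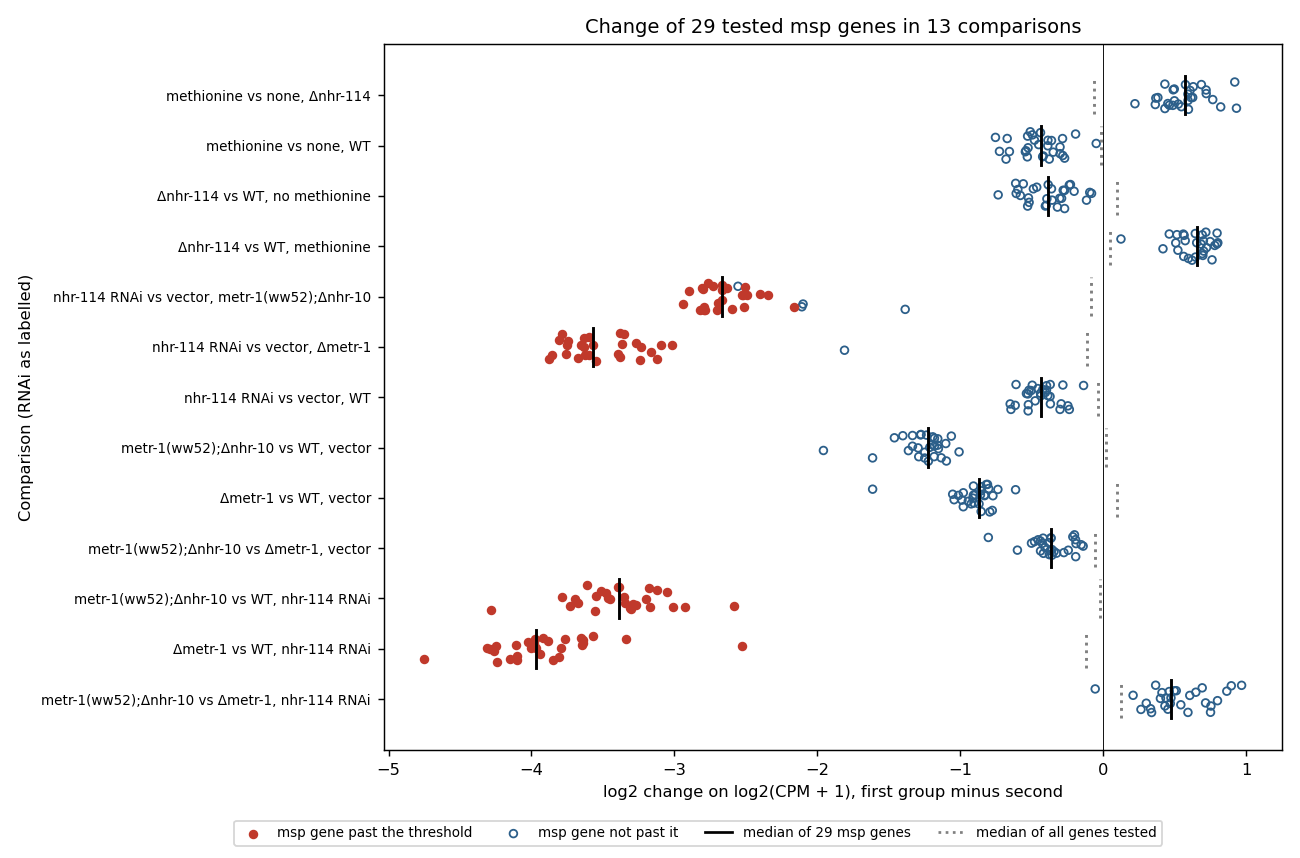
Log2 change on log2(CPM + 1) (x axis) of the 29 tested msp genes in each comparison of 2 groups (y axis; RNAi as labelled, vertical position within a comparison is only spread); filled points passed the limma threshold, and lines mark the medians of the msp genes and of all genes tested. Filled points appear in 4 comparisons, those of a metr-1 mutant labelled nhr-114 RNAi with its vector group (medians -2.67 and -3.57) or with WT under the same label (medians -3.39 and -3.97).

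Under the RNAi label, the mutants were also set against WT. In metr-1(ww52);Δnhr-10 the family total was 12.2-fold lower than in WT (493 ± 138 against 5993 ± 1056 CPM; SD, n = 2 each) and 29 of 29 members were called lower, beside 7.10% of all genes. The largest falls were those of msp-64 (-4.28 ± 0.42, limma adjusted p = 0.000448), msp-113 (-3.79 ± 0.48, adjusted p = 0.000749) and msp-3 (II, 4785898 to 4786281, - strand; -3.73 ± 0.42, adjusted p = 0.000562). The level of msp-3 was 5.23 and 10.4 CPM in the metr-1(ww52);Δnhr-10 libraries, against 88.9 and 139 CPM in WT. The count was 18 without WT RNAi replicate 2. In Δmetr-1 the total was 17.7-fold lower than in WT (338 ± 160 against 5993 ± 1056 CPM; SD, n = 2 each) and 29 of 29 members were called lower, beside 10% of all genes. The largest falls were those of msp-64 (-4.75 ± 0.42, limma adjusted p = 0.000218), msp-58 (-4.31 ± 0.52, adjusted p = 0.000433) and msp-65 (-4.29 ± 0.50, adjusted p = 0.000355), and this count stayed between 27 and 29 when any 1 library was left out. These comparisons share their libraries with those above and are not separate support.

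Leaving out the 3 labelled libraries with high nhr-114 reads, an alternative chosen after seeing the data, left 1 labelled library per strain, whose spread was taken from the other groups. The family total was then 5.70-fold lower than on vector in metr-1(ww52);Δnhr-10 and 10.2-fold lower in Δmetr-1, and 11.4- and 14.9-fold lower than in WT under the label. The limma calls fell to 0 in all 4 comparisons. The median log2 changes over the 29 members were -2.40, -3.14, -3.27 and -3.63 in that order. The labelled replicate 2 libraries, with nhr-114 at 2.30 to 7.94 CPM, had totals of 591 CPM in metr-1(ww52);Δnhr-10 and 451 CPM in Δmetr-1, against 6740.2 CPM in WT. Without the 3 libraries, 0 members were called for the label in WT (median log2 change -0.31, range -0.75 to 0.08), 0 between the mutants and 0 in the interactions, where the unadjusted p was below 0.05 for 27 members in Δmetr-1 (median -2.79) and 21 in metr-1(ww52);Δnhr-10 (median -2.02). In the gene lists described next, 0 genes were called in any of these comparisons without them, beside 0 to 3 of all 11307 genes tested.

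No member was called between the mutants under the label. The total averaged 493 ± 138 CPM in metr-1(ww52);Δnhr-10 and 338 ± 160 CPM in Δmetr-1 (SD, n = 2 each), and the libraries overlapped. With limma, 0 of 29 members were called, beside 0% of all genes, and edgeR and DESeq2 called 0. The unadjusted limma p was below 0.05 for 1 member, beside 361 of all genes. On vector the total averaged 3369 ± 1039 CPM in metr-1(ww52);Δnhr-10 and 4593 ± 2385 CPM in Δmetr-1, and limma, edgeR and DESeq2 again called 0. The unadjusted limma p was below 0.05 for 0 members, beside 589 of all genes.

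On vector, the totals of both mutants also lay below WT. The total was 2.40-fold lower in metr-1(ww52);Δnhr-10 (3369 ± 1039 against 8095 ± 186 CPM; SD, n = 2 each) and 1.76-fold lower in Δmetr-1 (4593 ± 2385 against 8095 ± 186 CPM; SD, n = 2 each), without overlap in either. The limma test called 0 of 29 members in both, beside 0.0173% and 0% of all genes called lower and 0.243% and 0.113% called higher, with adjusted p from 0.0865 to 0.368 and from 0.253 to 0.755. In metr-1(ww52);Δnhr-10 the unadjusted p was below 0.05 for 29 members, beside 1538 of the 11543 genes tested. The libraries did not overlap for 29, beside 25.0% of all genes with the mutant lower. In Δmetr-1 the unadjusted p was below 0.05 for 7 members, beside 972 of the 11543 genes tested. The libraries did not overlap for 24, beside 13.8% of all genes, and edgeR called 0 in both comparisons.

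The gene msp-64, singled out after its values were seen, had the lowest log2 change of the members in both of these comparisons. Its level was 128 and 180.2 CPM in the metr-1(ww52);Δnhr-10 strain and 262 and 142 CPM in Δmetr-1 on vector, against 578 and 609 CPM in WT. Its log2 change from WT was -1.96 ± 0.42 in metr-1(ww52);Δnhr-10 (limma adjusted p = 0.0865) and -1.61 ± 0.42 in Δmetr-1 (limma adjusted p = 0.253), beside medians of -1.22 and -0.87 over the members. DESeq2 called 1 member in the first comparison, msp-64, at an adjusted p of 0.00417. Its share of the family total was 4.87 and 4.39% in metr-1(ww52);Δnhr-10 and 4.18 and 4.90% in Δmetr-1 on vector, 4.12 and 3.73% and 3.82 and 4.59% in the same strains labelled nhr-114 RNAi, and 6.24 to 7.65% in the 4 WT libraries of experiment 2. These shares did not overlap between mutants and WT, and no test of them was made. In experiment 1 the share was 4.16 to 6.27% in Δnhr-114 and 5.49 to 6.52% in WT, which overlap.

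Many other genes of spermatogenesis were called lower in the same libraries. Of 58 such genes in the tables (kinases, phosphatases and membrane proteins of sperm, and small sperm-specific families), 41 were tested. In metr-1(ww52);Δnhr-10 labelled nhr-114 RNAi, 16 of them were called lower than on vector and 0 higher, beside 3.38% of all genes called lower, and the list's median was -1.88 on the log2 scale. For Δmetr-1 the counts were 33 and 0, beside 11% of all genes, and the median was -2.67. That median was -2.20 without Δmetr-1 vector replicate 1 and -3.09 without Δmetr-1 vector replicate 2. Against WT under the label, 32 were called lower in metr-1(ww52);Δnhr-10, beside 7.10% of all genes, and 34 in Δmetr-1, beside 10% of all genes, with 0 higher. Without the 3 labelled libraries with high nhr-114 reads, the medians against vector were -1.69 in metr-1(ww52);Δnhr-10 and -2.47 in Δmetr-1. The genes of this list with the lowest adjusted p included ssp-10, a sperm-specific gene with a major-sperm-protein-like product (log2 change -2.41 ± 0.32 in metr-1(ww52);Δnhr-10, limma adjusted p = 0.00253, and -2.71 ± 0.32 in Δmetr-1, limma adjusted p = 0.000743). Its level was 1.67 and 1.93 CPM in labelled metr-1(ww52);Δnhr-10, against 13.4 and 14.5 CPM on vector, and 1.17 and 1.23 CPM in labelled Δmetr-1, against 18.1 and 9.91 CPM on vector. The sperm gene smz-1, which encodes a protein of sperm meiosis, had 7.11 and 6.57 CPM in labelled metr-1(ww52);Δnhr-10, against 27.9 and 22.2 CPM on vector, and 2.26 and 3.97 CPM in labelled Δmetr-1, against 55.1 and 31.6 CPM on vector (log2 change -3.41 ± 0.38 in Δmetr-1, limma adjusted p = 0.000734). Several families of this list, nspd- and ssp- genes among them, also have close copies, so their single values are uncertain too.

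Relative to the summed list, the family total was lower in the low libraries. The family total was 2.06 and 2.33 times the sum of the 58 other genes in metr-1(ww52);Δnhr-10 labelled nhr-114 RNAi and 1.66 and 2.24 times in Δmetr-1 labelled nhr-114 RNAi, against 3.21 to 4.52 times in the other 8 libraries of experiment 2 and 3.34 to 4.27 times in experiment 1. That sum was 192 and 254 CPM in labelled metr-1(ww52);Δnhr-10, against 821 and 919 CPM on vector, and 135 and 202 CPM in labelled Δmetr-1, against 1574 and 781 CPM on vector, 3.91- and 6.99-fold lower with the label where the family total was 6.83- and 13.6-fold lower. The ratios did not overlap between the 4 low libraries and the other 16, but some genes of the list are also used outside sperm. In both mutants 40 of the 41 tested genes had log2 changes below 0 with the label, but ssp-37 was higher. It was at 18.24 and 32.98 CPM in labelled Δmetr-1, against 14.23 and 0.333 CPM on vector. In metr-1(ww52);Δnhr-10 it was at 6.69 and 19.31 CPM with the label, against 0 and 0.562 CPM on vector. Its reads lower the ratio in the 4 low libraries. The ratio was not computed without ssp-37, and no test of the ratio was made.

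**Figure D5:**
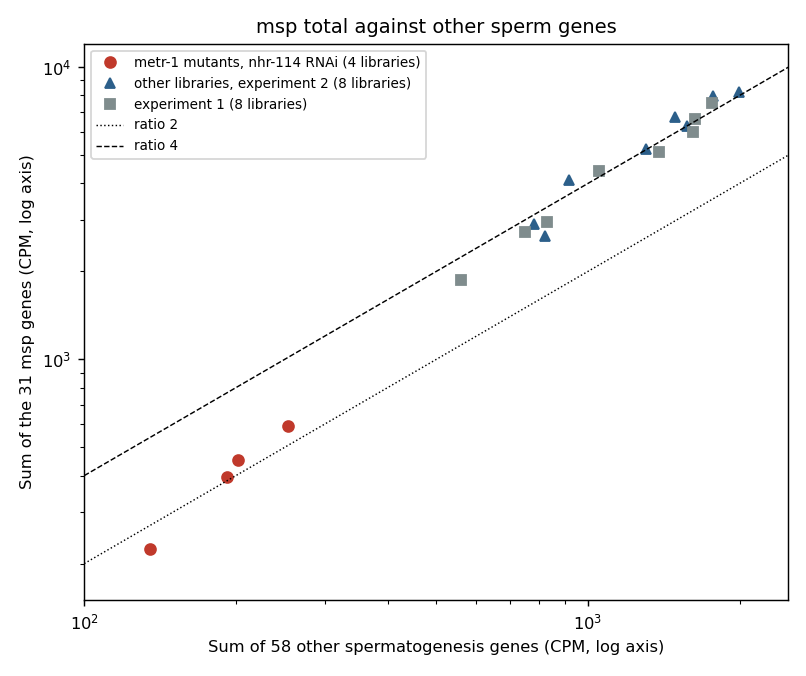
Sum of the 31 msp genes (CPM, log y axis) against the sum of 58 other spermatogenesis genes (CPM, log x axis) in each of the 20 libraries (RNAi as labelled), with lines at ratios of 2 and 4. The 4 libraries of metr-1 mutants labelled nhr-114 RNAi have ratios of 1.66 to 2.33, and the other 16 have ratios of 3.21 to 4.52.

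Among 8 regulators of sperm fate and of msp transcription, 1 was called lower in labelled metr-1(ww52);Δnhr-10 than on vector, beside 3.38% of all genes, and 4 in labelled Δmetr-1, beside 11% of all genes, with 0 higher. The list's median log2 change in Δmetr-1 was -1.57. It was -1.22 without Δmetr-1 vector replicate 1 and -1.58 without Δmetr-1 vector replicate 2. The transcription factor gene spe-44, which directs sperm genes including msp genes, was at 3.55 and 2.70 CPM in labelled metr-1(ww52);Δnhr-10, against 13 and 11.9 CPM on vector (log2 change -1.71, not past the limma threshold). In labelled Δmetr-1 it was at 0.813 and 3.25 CPM, against 12.8 and 16.8 CPM on vector (-2.50 ± 0.41, limma adjusted p = 0.00219). Against WT under the label, where it stood at 11.8 and 16.8 CPM, it was lower in metr-1(ww52);Δnhr-10 (-1.88 ± 0.41, limma adjusted p = 0.00855) and in Δmetr-1 (-2.45 ± 0.41, limma adjusted p = 0.00186). The groups did not overlap in these comparisons, but edgeR missed the threshold for the vector comparison in Δmetr-1 (adjusted p = 0.0107) and for metr-1(ww52);Δnhr-10 against WT (adjusted p = 0.0222).

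The gene fog-3, which is required for germ cells to become sperm, did not follow the family in all groups. It was at 45 and 29.2 CPM in labelled metr-1(ww52);Δnhr-10 and 26.8 and 24.7 CPM in labelled Δmetr-1, at 535 and 192 CPM in the metr-1(ww52);Δnhr-10 strain and 594 and 547 CPM in Δmetr-1 on vector, and at 13.5 to 19.2 CPM in the 4 WT libraries of experiment 2. It fell with the RNAi label in metr-1(ww52);Δnhr-10 (-3.11 ± 0.42, limma adjusted p = 0.00273) and Δmetr-1 (-4.41 ± 0.42, limma adjusted p = 0.000591). On vector, however, it was higher than in WT in metr-1(ww52);Δnhr-10 (4.23 ± 0.42, limma adjusted p = 0.00173) and in Δmetr-1 (5.06 ± 0.42, limma adjusted p = 0.00123), the groups in which the family total lay below WT. In experiment 1 it was at 126 to 273 CPM in Δnhr-114 and 232 to 974 CPM in WT.

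Of the other regulators, gld-1, which encodes an RNA-binding protein of early meiosis, was at 24.5 and 31.9 CPM in labelled metr-1(ww52);Δnhr-10, against 61.4 and 63.7 CPM on vector, and at 15.1 and 16.7 CPM in labelled Δmetr-1, against 219.6 and 81.5 CPM on vector. Its change was called in Δmetr-1 alone (-3.0 ± 0.40 on the log2 scale, limma adjusted p = 0.000956), and whether the mutants differ in this was not tested. The sex determination gene fem-3 was called lower with the label in Δmetr-1 too. The gene fog-1, which acts with fog-3 in sperm fate, was called higher in labelled Δmetr-1 than in labelled WT: it was at 36.8 and 41.1 CPM in labelled Δmetr-1, against 9.81 and 11.4 CPM in labelled WT (1.79 ± 0.40, limma adjusted p = 0.00769). The GATA factor gene elt-1 was at 5.65 and 7.47 CPM in labelled metr-1(ww52);Δnhr-10, against 5.90 and 9.24 CPM on vector, and at 4.70 and 3.17 CPM in labelled Δmetr-1, against 6.81 and 6.33 CPM on vector, with no call; tra-1 and fem-1 were not called in any of these comparisons either.

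A few genes on the receiving side of the sperm signal were called lower in Δmetr-1. Of 20 genes for receptors and downstream steps in the gonad, 19 were tested, and 5 were called lower in labelled Δmetr-1 than on vector (inx-14, inx-22, vab-1, oma-1 and oma-2), beside 11% of all genes, 0 in labelled metr-1(ww52);Δnhr-10 and 0 in WT, with median log2 changes over the list of 0.13 in metr-1(ww52);Δnhr-10 and -0.13 in Δmetr-1, beside -0.09 and -0.11 over all genes. The vector libraries of Δmetr-1 differed in these genes and in oocyte and yolk genes: the oocyte and eggshell sum was 5753 and 763 CPM and the vitellogenin sum 3264 and 64.0 CPM in replicate 1 and 2. Without replicate 1, 3 of the 19 were called lower, with a median of 0.03. No gene of the list was called in the interactions with WT. Against WT under the label, 3 were called lower in Δmetr-1 (inx-14, inx-22 and oma-1), beside 10% of all genes, and for metr-1(ww52);Δnhr-10 the count was 0. The innexin gene inx-14, which encodes a gap junction protein of the germline, was at 11.6 and 7.43 CPM in labelled Δmetr-1, against 112 and 46.8 CPM on vector (-2.83 ± 0.42, limma adjusted p = 0.00135). Its partner inx-22 was at 3.25 and 1.95 CPM in labelled Δmetr-1, against 53.3 and 14.8 CPM on vector (-3.05 ± 0.50, limma adjusted p = 0.00212). The gene vab-1, which encodes an ephrin receptor that binds major sperm protein, was at 10.7 and 8.51 CPM in labelled Δmetr-1, against 54 and 24.0 CPM on vector (-1.82 ± 0.36, limma adjusted p = 0.00541), and at 16.1 and 15.2 CPM in labelled metr-1(ww52);Δnhr-10, against 19.7 and 18.7 CPM on vector.

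Of 18 tested genes of mitotic and meiotic germ cells, 2 were called lower in labelled metr-1(ww52);Δnhr-10 and 14 in labelled Δmetr-1 than on vector, beside 3.38% and 11% of all genes, with medians of -0.94 and -2.08. Without Δmetr-1 vector replicate 1, 7 of the 18 were called. Of 17 oocyte and eggshell genes, 0 were called lower in labelled metr-1(ww52);Δnhr-10 and 6 in labelled Δmetr-1, beside 3.38% and 11% of all genes. Their medians were -0.92 and -3.55, and that of Δmetr-1 was -2.26 without vector replicate 1 and -4.84 without vector replicate 2. The oocyte and eggshell sum was 499.9 and 2551 CPM in labelled metr-1(ww52);Δnhr-10, against 509 and 672 CPM on vector. The ratio of these means was 2.58, but the first labelled library lay below both vector libraries. The log2 change was below 0 for 15 of the 17 genes. In labelled Δmetr-1 the sum was 799 and 2089 CPM, against 5753 and 763 CPM on vector. The summed level of the germline genes was 413 to 631 CPM in the 4 low libraries, against 1146 to 2361 CPM in the other 8 libraries of experiment 2. In whole-animal RNA, fewer germ cells and less RNA per cell cannot be told apart. Of 9 male soma genes, 1 was tested, with no call, and their sum was 4.81 to 11.3 CPM in the 4 low libraries, against 1.71 to 5.90 CPM in the other 8. Of this list, try-5 was at 1.88 and 5.86 CPM in labelled metr-1(ww52);Δnhr-10 and 3.34 and 5.77 CPM in labelled Δmetr-1, against 0.25 to 1.34 CPM in the other 8 libraries, and pkd-2 was at 0 to 1.46 CPM in the 12. The male soma sums overlap, and levels of the list's other genes are not given.

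The authors report that under nhr-114 RNAi the mutants from their screen, metr-1(ww52);Δnhr-10 among them, developed much more slowly, whereas the parent strain did not. Of the stage markers, 0 genes were called for the label against vector with all libraries kept. Of all 11543 genes, 160 were called higher and 390 lower in metr-1(ww52);Δnhr-10, and 176 and 1272 in Δmetr-1. The vitellogenin sum was 345 to 5518 CPM in the 4 low libraries, against 64.0 to 3264 CPM in the other 8, with 0 of 6 genes called in either mutant but log2 changes above 0 for all 6 in both (medians of 2.71 in metr-1(ww52);Δnhr-10 and 2.90 in Δmetr-1 for the label against vector). In Δmetr-1 this median was 5.89 without vector replicate 1 and -0.15 without vector replicate 2. The sum of 18 molting and late cuticle genes was 997 to 2578 CPM, against 1305 to 3424 CPM, with 0 called and medians of -1.57 and -1.11. In Δmetr-1 the molting median was -3.03 without vector replicate 1 and 0.60 without vector replicate 2. The ranges of these sums overlap, and the part of stage in the msp result was not tested. The summed body wall muscle genes were at 14001 to 18194 CPM in the 4 low libraries, against 12364 to 22729.6 CPM in the other 8, and the intestine genes at 5697 to 7711 CPM, against 6295 to 9418 CPM. With the label, 1 of 13 body wall muscle genes was called lower in Δmetr-1 and 0 in the other mutant, beside 11% and 3.38% of all genes. Of 11 intestine genes, 0 were called in either.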

How the data were processed

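Whole-animal RNA was sequenced from the 3′ ends of transcripts (modified CEL-seq2). Before deposit, the authors used Trimmomatic 0.32 for trimming, STAR for alignment and ESAT for counting on a WormBase gene set, with reads that map to several places kept. The deposited values are CPM although the tables were named TPM: each library sums to 1000000, and 100% of the values were whole multiples of a library's step (tolerance 0.02 reads), which gave back whole reads. The members and gene lists were chosen with earlier results of these data known.

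Genes with at least 5 CPM in 2 libraries of an experiment were tested, and each experiment was fitted with 1 mean per group by limma 3.58.1 in R 4.3.3 (trend and robust) on log2(CPM + 1), which understates the change of low genes, with two-sided p-values adjusted over all genes tested (Benjamini-Hochberg). Called means an adjusted p below 0.01 and a change above 1.5-fold. With 2 libraries per group, each p-value sets a change against a spread between replicates that is pooled over all groups of the experiment. That spread is also drawn towards a trend over all genes tested. Each library was given for the family total and the 6 members with the highest mean; for each comparison the 3 called members with the largest fall and rise were named, and up to 3 called genes per list by adjusted p, with spe-44, elt-1 and other signalling and regulator genes by level. Alternatives were edgeR 4.0.16 and DESeq2 1.42.0 on recovered reads, a pseudocount of 0.5, no filter, median-of-ratios scaling, the compared libraries only, a replicate block and each library left out; the model was tested on simulated data. Annotation came from WBcel235 (Ensembl); the study counted on its own WormBase gene set, and 31 of 31 symbols matched. No per-sample column was left unmapped.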

Additional observations from a re-analysis of the deposited data

How the results depend on the processing

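With 2 libraries per group, the number of msp genes called depends on how the spread is estimated, while the direction held: no alternative turned the sign in any of the 44 named pairs of gene and comparison. For metr-1(ww52);Δnhr-10 labelled nhr-114 RNAi against vector (25 called), the count was 0 with the compared libraries only and 0 to 27 with 1 library left out. For Δmetr-1 labelled nhr-114 RNAi against vector (28), it was 0 with the compared libraries only and 5 to 29 with 1 left out, and against WT under the label it was 18 to 29 for metr-1(ww52);Δnhr-10 (29) and 27 to 29 for Δmetr-1 (29). Without the 3 labelled libraries with high nhr-114 reads, the count was 0 in all 4. For the interactions (0), DESeq2 called 7 in metr-1(ww52);Δnhr-10 and 28 in Δmetr-1, and leaving out 1 library gave 0 to 27 in Δmetr-1. On vector, metr-1(ww52);Δnhr-10 against WT (0) had 1 call with DESeq2 and 1 with the compared libraries only. The other alternatives stayed within 1.5 times the count given, including edgeR (17 of 25 in metr-1(ww52);Δnhr-10). Over all genes, limma called 550, edgeR 389 and DESeq2 1290 for the label against vector in metr-1(ww52);Δnhr-10, 1448, 1560 and 2424 in Δmetr-1, and 1417, 1374 and 2280 and 1832, 2064 and 2902 for these mutants against WT under the label, while for the interactions DESeq2 called 478 and 853 genes where limma called 2 and 4.

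No label ties equal replicate numbers to a shared batch, and not every pair of groups correlated above 0.1 in the deviations of replicate 1 from the group means (r from -0.66 to 0.31 in experiment 1, with 2 of 6 pairs above 0.1, and from -0.47 to 0.68 in experiment 2, with 6 of 15), so the samples were not treated as paired. The r of 0.68 was that of the labelled mutants, and nhr-114 reads were high in replicate 1 of all 3 labelled groups. With the replicate block, 20 members were called for the label against vector in metr-1(ww52);Δnhr-10 and 28 in Δmetr-1, and 29 in each mutant against WT under the label. With all libraries kept, the log2 ratio of family totals moved by less than the spread between replicates under every alternative. These included members of chromosome II or of chromosome IV alone, which were added after seeing the data. Leaving out 1 of a group's 2 libraries cannot move the ratio past that spread at the replicate folds seen here, so it is no check of this kind. Counting members with identical reads once changed nothing, since 0 members had them. Leaving out 1 compared library gave log2 ratios of -3.09 to -2.42 in metr-1(ww52);Δnhr-10 and -4.36 to -3.10 in Δmetr-1 for the label against vector. In experiment 1 such ratios changed sign in 3 of the 4 comparisons, from -1.49 to 0.42 for methionine in WT, from -0.94 to 0.41 for Δnhr-114 against WT without methionine and from -0.12 to 1.56 with it.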
